A study of Mus musculus with 38 samples.

Results

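The 10 genes described here encode the kinase mTOR (Mtor), the scaffold proteins of its 2 complexes (Rptor and Rictor), the inhibitory subunit Deptor, the stress-induced inhibitors Ddit4, Sesn1 and Sesn2, the tuberous sclerosis pair Tsc1 and Tsc2, and the translation repressor Eif4ebp1. They were followed at their promoters in soleus muscle of mice that entered torpor. A promoter was taken as a gene's own when its highest peak lay within 500 bp, on the same strand, of a GENCODE vM21 transcript start of that gene. This gave 10 of the 10819 promoters in the table, 1 for each of the 10 genes, so no gene was absent. The same 10 were found within 100 bp, and 11 within 1000 bp, the added one being a second promoter of Sesn1.

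All libraries came from male C57BL/6J mice, young adults, 1 animal per library, by cap analysis of gene expression (nAnT-iCAGE), which counts 1 tag for each capped transcript 5′ end. Food was freely available on day 1 (Pre), was removed for day 2 so that torpor followed (Mid), and was given back by day 3 (Post). The ambient temperature was set before day 1 and kept constant, low in every condition but HiT. On day 2, torpor was prevented by high ambient temperature in fasted mice (HiT) or by leaving the food at low ambient temperature (Fed). Dep mice were fasted at low ambient temperature and touched whenever their oxygen consumption began to drop. The touching covered only the last hours before sampling. It began after the hour at which, by the paper, these mice usually start to enter torpor. These descriptions follow the methods of the study, since its sample labels name Fed with the word starvation and its design text gives HiT food. The 1st run held 8 Mid libraries and 4 of each other condition, and the 2nd run, from another batch of mice, held 2 Pre, 5 Mid and 3 Post libraries.

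mTOR is a kinase that couples nutrient, growth factor and energy signals to protein synthesis and autophagy. It works in complex 1, built on Raptor, and complex 2, built on Rictor. In muscle, fasting and stress restrain complex 1 through REDD1 (the product of Ddit4), the sestrins and the TSC complex, and active complex 1 phosphorylates 4E-BP1 (the product of Eif4ebp1) so that it releases the cap-binding protein eIF4E. Promoter tags report transcript levels, not the activity of the kinase.

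The libraries held 18257657 to 39176649 tags in the 1st run and 9359994 to 20914855 in the 2nd. The member with the fewest tags in any library was Sesn2, with 17 in Post 6, and the most abundant was Eif4ebp1, with up to 12410. Levels are in CPM (tags of a promoter per 1000000 tags, scaled by the trimmed mean of M-values, TMM). The 6 slow-fibre markers of soleus summed to between 8419 and 13017 CPM over the 28 libraries of the 1st run. In the 2nd run they summed to between 17015 and 26330 CPM. Fast-fibre markers summed to 3616 to 8373 CPM in the 1st run and to 14581 to 21199 in the 2nd. One Mid library of the 1st run stood apart. Over the promoters called from Pre to Mid without it, Mid 6 showed a median of 38% of the Pre to Mid change, against 95.5% to 118.1% in the other 7, and Mid 10 of the 2nd run showed 61.2% against 93.5% to 112.7%. Results that rest on Mid 6 are therefore given with and without it. Both libraries were singled out by their small change. Leaving them out thus tends to enlarge differences from Mid, and a call gained that way is no added support. The paper describes Mid mice as either torpid or between torpid states, and the state of these 2 mice was not examined here. Summed macrophage markers were 144 to 343 CPM in HiT against 38.9 to 97.0 in the other 24 libraries, and all 5 measured rose from Pre to HiT, the defining marker Adgre1 having no promoter in the table. Neutrophil markers reached 133 CPM in Dep 1 against at most 1.56 in the other libraries of the 1st run, adipocyte markers ran from 78.7 to 1542 in Dep 3, and red cell markers from 1886 to 13747 in Fed 2. Tendon markers summed to 369 to 780 CPM and endothelial markers to 142 to 191 CPM. The part of these cell types in the results below was not tested, and in whole muscle fewer cells of a type and less RNA per cell cannot be told apart.

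The promoter sequences of 4 genes that rose in torpor (Ddit4, Sesn1, Sesn2 and Mtor) and of 2 that did not pass the test (Rictor and Tsc2) are shown to let their start sites be compared. Each runs from 100 bases upstream to 18 bases downstream of the deposited peak, is from RefSeq (GRCm38.p6), and reads 5′ to 3′ on the gene's strand. Capitals mark the 3 bases from the peak onward and every GC box (GGGCGG on either strand).
Ddit4, chr10:59951818-59951936, minus strand: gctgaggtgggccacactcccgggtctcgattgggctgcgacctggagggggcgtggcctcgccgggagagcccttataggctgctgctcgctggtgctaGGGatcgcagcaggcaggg
Sesn1, chr10:41887337-41887455, plus strand: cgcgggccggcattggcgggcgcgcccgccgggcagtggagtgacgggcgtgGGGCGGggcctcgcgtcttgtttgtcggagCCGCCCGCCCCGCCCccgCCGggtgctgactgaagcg
Sesn2, chr4:132510452-132510570, minus strand: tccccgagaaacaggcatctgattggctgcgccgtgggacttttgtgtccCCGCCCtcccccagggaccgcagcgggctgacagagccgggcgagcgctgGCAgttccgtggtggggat
Mtor, chr4:148448513-148448631, plus strand: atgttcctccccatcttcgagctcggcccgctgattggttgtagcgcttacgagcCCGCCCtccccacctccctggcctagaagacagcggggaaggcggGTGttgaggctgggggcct
Rictor, chr15:6708279-6708397, plus strand: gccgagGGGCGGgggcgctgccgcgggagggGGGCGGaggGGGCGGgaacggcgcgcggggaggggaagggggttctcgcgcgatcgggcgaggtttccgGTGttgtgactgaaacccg
Tsc2, chr17:24632602-24632720, minus strand: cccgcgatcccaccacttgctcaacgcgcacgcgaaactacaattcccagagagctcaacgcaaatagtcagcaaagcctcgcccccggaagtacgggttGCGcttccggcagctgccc

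Of the 10 members, 7 had a RefSeq window (250 bases before to 50 after a transcript start) that held the peak. Rptor, Deptor and Eif4ebp1 had none. The GC box was found in 5 of the 7 windows (Mtor, Rictor, Ddit4, Sesn1 and Sesn2, not Tsc1 or Tsc2), against 35.7% of all 32851 RefSeq windows, so it was present both at promoters that rose and at one that did not. None of the 7 held CACGTG (7.15% of all windows), AGAACA, part of the glucocorticoid response element (19%), the FOXO core TGTTTAC (3.65%), TGACGT (7.51%) or TATAAA (13.6%), each searched on both strands. The deposited peaks lay slightly upstream of the usual initiator. A pyrimidine-purine step had its purine 2 bases downstream of the peak in 78.3% of 4511 promoters with a window, against 22.5% at the peak itself, and 5 of the 7 members carried it there. The peaks stood between 2 bp upstream and 47 bp downstream of the nearest GENCODE start. The Eif4ebp1 peak, at position 27260376 of chromosome 8 on the plus strand of mm10, lay 47 bp downstream of its start, and the Deptor peak, at 55112463 of chromosome 15, lay 39 bp downstream.

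From Pre to Mid, 5 of the 10 promoters rose and none fell (edgeR quasi-likelihood test, Benjamini-Hochberg FDR below 0.05 over 10776 promoters tested). Over all promoters 15.4% rose and 14.8% fell. Of all promoters called, 51.0% rose, a share that was 36.6% by library size alone and 35.7% with upper-quartile scaling, while no called member changed direction under either. The risers were the inhibitors Ddit4, Sesn1 and Sesn2, the repressor Eif4ebp1 and the kinase gene Mtor itself, while both scaffolds, Deptor and both TSC genes did not pass. The median log2 fold change was 0.43 over the 10 members and 0.01 over all promoters. Without Mid 6, singled out for its small change, the same 5 rose with somewhat larger changes, which adds no support.

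**Figure D1:**
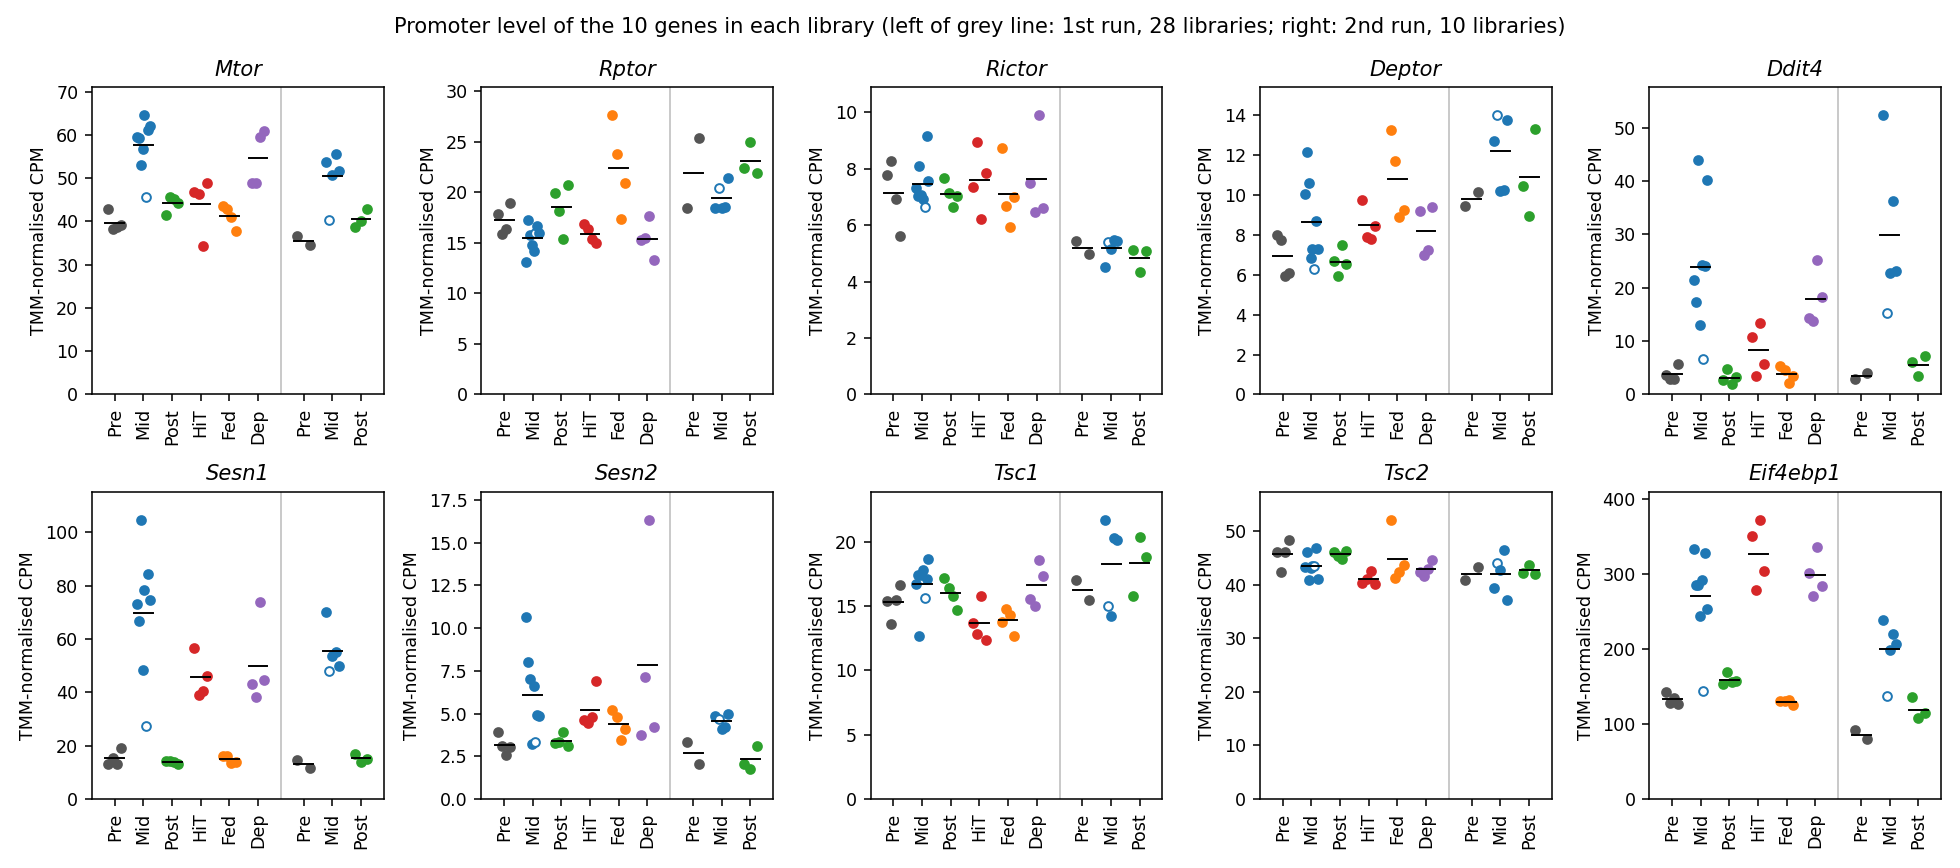
TMM-normalized CPM (y axis, from 0) of each of the 10 promoters in every library, by condition (x axis), with the 1st run left of the grey line and the 2nd run right of it. Points are libraries, black bars are group means, and open points are Mid 6 and Mid 10. Sesn1 and Eif4ebp1 stood above Pre in Mid, HiT and Dep, Ddit4 did so in Mid and Dep while its HiT libraries reached down into the Pre range, Rictor and Tsc2 stayed level, and in the 1st run Mid 6 lay near the Pre libraries for Mtor, Ddit4 and Eif4ebp1.

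Ddit4 encodes REDD1, which restrains complex 1 through the TSC complex. Its promoter held 3.67, 2.81, 2.92 and 5.76 CPM in Pre 1 to Pre 4, and in the 8 Mid libraries it ranged from 6.70 in Mid 6 through a median of 22.7 to 43.9 in Mid 3. No Pre library reached the lowest Mid library. The rise was 6.28-fold (log2 2.65, SE 0.43, FDR 5.07e-05), and log2 2.80 without Mid 6. Post libraries were back at 2.70, 4.73, 2.05 and 3.21 CPM. The fall from Mid to Post was log2 -2.91 (SE 0.44, FDR 1.51e-05). Spread among Mid animals was wide, with a coefficient of variation of 53.1% against 36.0% in Pre. It was as wide in HiT (54.3%), without torpor, and was 29.7% in Dep.

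Sesn1 encodes a sestrin, a stress-responsive protein that binds GATOR2 and holds complex 1 back when leucine is low. It stood at 13.2, 15.4, 13.3 and 19.3 CPM in Pre and at 27.3 (Mid 6), a median of 73.9 and 104.7 (Mid 3) CPM in Mid, again without overlap. The change was 4.56-fold (log2 2.19, SE 0.25, FDR 4.95e-07). The Post values, 14.4, 14.1, 13.96 and 12.98 CPM, sat within the Pre range or just below it (Post 4), and the fall was log2 -2.33 (SE 0.25, FDR 9.41e-08).

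Sesn2, the second sestrin, was the least abundant member. It held 3.902, 3.13, 2.60 and 3.02 CPM in Pre and ranged from 3.20 (Mid 4) through 5.74 to 10.7 (Mid 1) CPM in Mid. Mid 4 and Mid 6, at 3.37, overlapped with Pre, and the other 6 Mid libraries lay above it. The rise was 1.92-fold (log2 0.94, SE 0.33, FDR 0.0319). It no longer passed when Pre 2, Pre 3, Pre 4 or Mid 1 was left out, the lowest value being log2 0.77. The call was also lost by library size alone (FDR 0.0982) and with the deposited TPM (FDR 0.123). From Mid to Post the difference of log2 -0.83 (SE 0.33) narrowly missed the threshold at FDR 0.0501. It passed by the likelihood ratio test (FDR 0.0375), by DESeq2 (FDR 0.0274), and without Mid 4, Mid 6 (FDR 0.0271), Mid 7, Mid 8, Dep 1, Dep 3 or Dep 4.

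Eif4ebp1, the most abundant member, held 143, 128, 135 and 126 CPM in Pre. In Mid it ranged from 144.7 (Mid 6) through a median of 286 to 334 (Mid 1). Apart from Mid 6, which lay just above Pre 1, every Mid library had 245 CPM or more. It rose 2.04-fold (log2 1.03, SE 0.14, FDR 4.41e-06) and 1.13 on the log2 scale without Mid 6. Post libraries held 153, 170, 157 and 158 CPM, all above Mid 6 and below the other 7, and the fall was log2 -0.77 (SE 0.14, FDR 9.48e-05). All 4 Post libraries stayed above all 4 Pre libraries, but the difference between these groups did not pass the test (log2 0.26, 95% confidence interval -0.05 to 0.57, FDR 0.506). With only these 2 groups in the fit it was log2 0.28 and passed (FDR 0.0418).

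Mtor changed less but evenly. It held 42.8, 38.3, 38.7 and 39.1 CPM in Pre and from 45.7 (Mid 6) through 59.5 to 64.5 (Mid 5) CPM in Mid. The groups did not overlap, and the rise was 1.45-fold (log2 0.54, SE 0.09, FDR 6.42e-05). In Post it was at 41.4, 45.6, 45.3 and 44.3 CPM, below every Mid library, a fall of log2 -0.39 (SE 0.09, FDR 0.00149). This call depended on the scaling of the libraries: by library size alone the fall was log2 -0.37 with FDR 0.113, and with the deposited TPM the rise was log2 0.45 with FDR 0.0529.

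The scaffolds parted from the kinase. Rptor, the scaffold of complex 1, held 17.9, 15.8, 16.4 and 18.9 CPM in Pre and 13.1 to 17.3 (median 15.9) in Mid, and its difference of log2 -0.16 (95% interval -0.37 to 0.05, FDR 0.253) did not pass. Rictor, the scaffold of complex 2, held 7.77, 8.27, 6.94 and 5.62 CPM in Pre against 6.66 to 9.14 (median 7.18) in Mid. Its range of group means, only 0.10 on the log2 scale over the 6 conditions, was the smallest among the members. The Rictor difference from Pre to Mid, log2 0.06 (FDR 0.745), had a wider interval than that range, log2 -0.20 to 0.33. Deptor, a subunit that inhibits both complexes, held 8.003, 7.71, 5.92 and 6.08 CPM in Pre and 6.30 to 12.1 (median 7.98) in Mid. Its difference of log2 0.31 (interval -0.01 to 0.64, FDR 0.136) did not pass, and from Mid to Post its difference of log2 -0.37 (FDR 0.0677) passed without Mid 6 (log2 -0.42, FDR 0.0313) or Mid 4 (FDR 0.0457).

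Tsc1 and Tsc2 encode the complex that switches off Rheb, the activator of complex 1. Tsc1 held 15.4, 13.7, 15.5 and 16.7 CPM in Pre and 12.7 to 18.7 (median 17.3) in Mid, with a change of log2 0.13 (interval -0.06 to 0.31, FDR 0.305). Tsc2 held 46.0, 42.4, 46.0 and 48.3 CPM in Pre and 40.8 to 46.9 (median 43.4) in Mid. Its interval of log2 -0.18 to 0.04 was the narrowest of the 10. With upper-quartile scaling the Tsc2 difference was log2 -0.14 and passed at FDR 0.0497.

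From Mid to Post, 4 members fell (Ddit4, Sesn1, Eif4ebp1 and Mtor) and 1 rose, against 17.5% of all promoters falling and 17.5% rising. All 4 that fell were among the 5 that had risen, the comparisons sharing the Mid libraries. The 1 that rose was Rptor, from 13.1 to 17.3 CPM in Mid to 19.97, 18.2, 15.4 and 20.7 CPM in Post. The ranges overlapped, and the change, log2 0.26 (SE 0.10, FDR 0.0452), did not pass without Pre 1, Pre 3, Mid 1, Mid 3, Mid 4, Mid 5, Post 1, Post 2, Post 4, HiT 2, Dep 1 or Dep 2, nor by library size alone (FDR 0.238). From Pre to Post none of the 10 was called (edgeR), none had an unadjusted p below 0.05, and none was called by the likelihood ratio test or DESeq2. Over all promoters 1.05% were higher and 0.798% lower in Post.

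**Figure D2:**
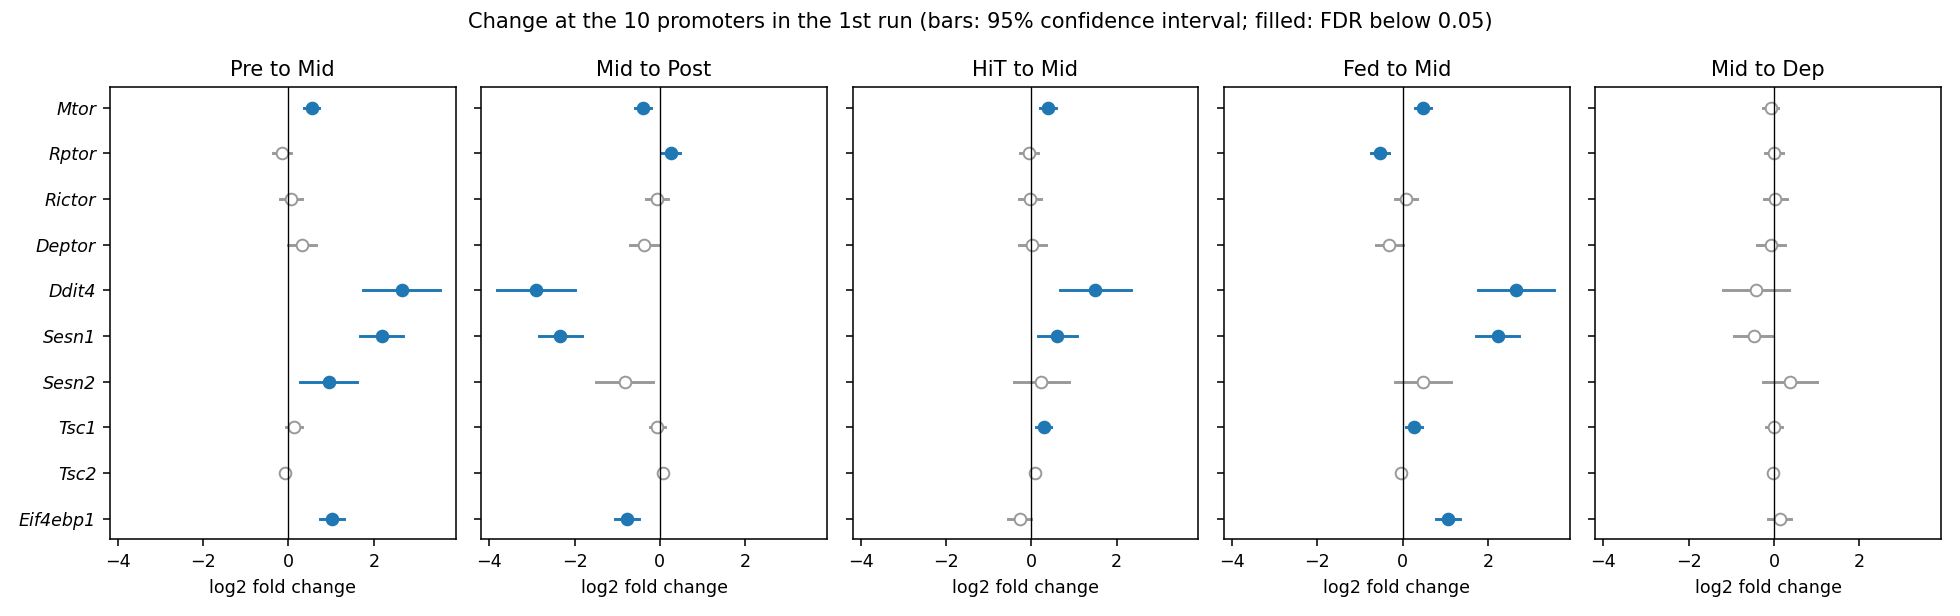
Log2 fold change (x axis) of each promoter (y axis) in 5 comparisons of the 1st run, positive where the second-named condition was higher. Bars are 95% confidence intervals from the edgeR fit, and filled points passed FDR 0.05. Ddit4 and Sesn1 had the largest changes in the first 4 panels, and no point is filled from Mid to Dep.

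The 2nd run made the comparisons among Pre, Mid and Post in other animals, with levels scaled separately from those of the 1st run. From Pre to Mid 4 members rose (Ddit4, Sesn1, Eif4ebp1 and Mtor) and none fell, where 5.3% of all promoters rose and 4.44% fell. Ddit4 went from 2.95 and 4.05 CPM in Pre to 15.2, 22.7, 23.1, 36.3 and 52.4 in Mid (log2 3.08, SE 0.53, FDR 0.00594), the lowest being Mid 10. Sesn1 went from 14.6 and 11.8 to between 48.0 and 70.0 CPM (log2 2.07, SE 0.17, FDR 1.60e-04). Eif4ebp1 went from 91.6 and 80.3 to between 137 and 239.6 CPM (log2 1.22, FDR 0.00471) and Mtor from 36.5 and 34.5 to between 40.3 and 55.6 CPM (log2 0.50, FDR 0.0273). With 2 Pre libraries, leaving out Pre 6 left 1 call and leaving out Pre 5 left 2. Within lane 3 of the sequencer, the only lane with both conditions, Mtor no longer passed (FDR 0.0825), an alternative chosen after the data were seen. Nor did Mtor pass with lane as a term (FDR 0.0534), likewise chosen afterwards. Its call was also lost without Mid 9 (FDR 0.0516), Mid 12 (FDR 0.0548) or Mid 13 (FDR 0.053).

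From Mid to Post in the 2nd run, 4 members fell (Ddit4, Sesn1, Sesn2 and Eif4ebp1) and none rose, against 8.65% and 7.73% of all promoters. Sesn2 fell from 4.11 to 4.97 CPM in Mid to 2.06, 1.75 and 3.13 CPM in Post (log2 -0.98, SE 0.26, FDR 0.026), a call lost without Mid 9 (FDR 0.0502), Post 5 (FDR 0.0879) or Post 6 (FDR 0.0912). Mtor, at log2 -0.31 (FDR 0.0666), passed without Mid 10 (log2 -0.38, FDR 0.00738). In this run 4 of the 5 Mid libraries were in lane 3 and all 3 Post libraries in lane 4. With lane as a term 1 member was called. The difference in change between the runs passed for none of the 10 members and for 0.0% of all promoters, both for Pre to Mid and for Mid to Post. Its largest values were for Ddit4, 0.45 (SE 0.79) for Pre to Mid and 0.49 (SE 0.65) for Mid to Post on the log2 scale, and no member had an unadjusted p below 0.05. Over all promoters 515 and 563 had an unadjusted p below 0.05, and DESeq2 called 7 and 0.

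**Figure D3:**
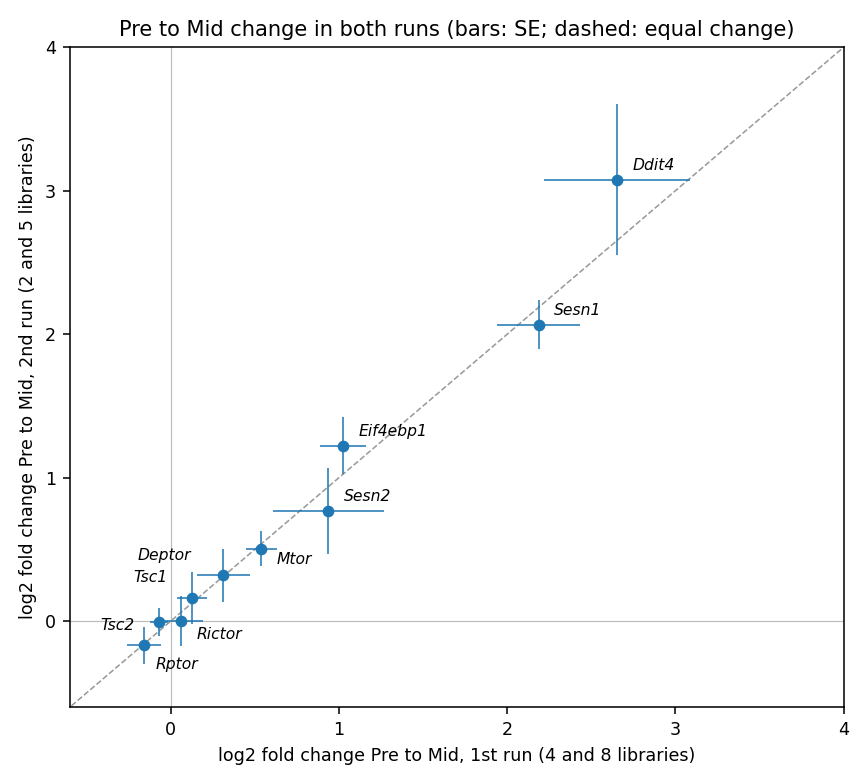
Log2 fold change from Pre to Mid in the 1st run (x axis) and the 2nd run (y axis) for the 10 promoters, with SE bars. The dashed line marks equal change. Ddit4 lay at 2.65 and 3.08 and Sesn1 at 2.19 and 2.07.

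HiT against Mid asks which promoters were higher in torpor than in fasted mice kept warm. Here 4 members were higher in Mid (Ddit4, Sesn1, Mtor and Tsc1) and none was lower, against 19.2% and 21.8% of all promoters. Ddit4 held 10.7, 3.55, 13.5 and 5.74 CPM in HiT, overlapping only with the 2 lowest Mid libraries, and was 2.84-fold higher in Mid (log2 1.504, SE 0.40, FDR 0.00386). Mtor held 46.7, 46.3, 34.4 and 48.8 CPM in HiT, where Mid 6 was the 1 Mid library within that range, and was 1.31-fold higher in Mid (log2 0.39, SE 0.09, FDR 0.00112). Sesn1 held 56.6, 39.1, 40.6 and 46.2 CPM in HiT and differed by log2 0.61 (SE 0.22, FDR 0.0307). Without Mid 6 the Sesn1 difference was log2 0.75 with FDR 8.92e-04, but it failed without Mid 3, Mid 7, HiT 2 or HiT 3, and by library size alone (FDR 0.0575). Tsc1 held 13.7, 12.8, 15.8 and 12.4 CPM in HiT and was higher in Mid by log2 0.29 (SE 0.09, FDR 0.0122), a call lost by library size alone (FDR 0.0727) and with the deposited TPM (FDR 0.0561). Among the slow-fibre markers 3 of 6 were also higher in Mid than in HiT, as were 2 of the 6 fast-fibre markers, and their part was not tested.

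Eif4ebp1 did not follow. It held 352, 279.5, 373 and 305 CPM in HiT, with 2 libraries above every Mid library and the lowest within the Mid range, and the difference, log2 -0.27 (interval -0.54 to -0.00, FDR 0.0991), did not pass. Without Mid 6 it was log2 -0.16 (FDR 0.127). Against Pre, HiT had 2 risers, Eif4ebp1 (2.45-fold, log2 1.30, SE 0.15, FDR 6.19e-07) and Sesn1 (2.99-fold, log2 1.58, SE 0.26, FDR 3.92e-05), and none that fell, where 18.5% of all promoters rose and 14.9% fell. Ddit4 was at log2 1.15 with FDR 0.0556, and passed by the likelihood ratio test, by DESeq2 and without Mid 6 (FDR 0.0287). Mtor, at log2 0.15 (interval -0.06 to 0.36, FDR 0.273), was not called. Pre and HiT differed in both food and ambient temperature, whose parts cannot be told apart here. HiT was also the condition with high macrophage markers, and from Pre to HiT 2 of 6 slow-fibre, 2 of 6 fast-fibre and 3 of 4 red cell markers fell.

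Fed against Mid sets torpor beside mice kept equally cool with food. The members higher in Mid were Ddit4, Sesn1, Eif4ebp1, Mtor and Tsc1, and 1, Rptor, was lower, against 16.6% and 18.6% of all promoters. Ddit4 held 5.27, 4.58, 2.12 and 3.44 CPM in Fed (log2 2.65, SE 0.44, FDR 4.22e-05) and Sesn1 16.1, 16.2, 13.3 and 13.9 CPM (log2 2.23, SE 0.25, FDR 3.24e-07). Eif4ebp1 held 131, 130.4, 132 and 125 CPM, all below Mid 6 (log2 1.07, SE 0.14, FDR 2.25e-06). Mtor held 43.5, 42.8, 41.0 and 37.9 CPM (log2 0.49, SE 0.09, FDR 1.73e-04), a call that library-size scaling took to FDR 0.0933. Tsc1 held 13.8, 14.8, 14.3 and 12.7 CPM (log2 0.27, SE 0.09, FDR 0.0232), which did not pass by library size alone (FDR 0.556), with upper-quartile scaling (FDR 0.0601), or without Fed 1 or Fed 4. All 4 red cell markers measured were also lower in Mid than in Fed, and their part was not tested.

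Rptor was highest in Fed. It held 27.6, 23.8, 17.3 and 21.0 CPM there, the lowest just above the highest Mid library, and was lower in Mid by log2 -0.53 (SE 0.10, FDR 2.01e-04). From Pre to Fed 2 members rose, Rptor (log2 0.37, SE 0.12, FDR 0.0412) and Deptor (log2 0.63, SE 0.18, FDR 0.0284), and none fell, against 5.88% and 5.32% of all promoters. Deptor held 13.2, 11.7, 8.89 and 9.25 CPM in Fed, all above Pre. Fed 1 was the highest library for both genes and also had the fewest tags and the highest fast-fibre marker sum, 8373 CPM. Without Fed 1 neither gene passed (FDR 0.206 for Rptor and 0.122 for Deptor), nor did either without Fed 2 or Pre 3, Rptor without Pre 1 or Pre 2, or Deptor without Pre 4. Both calls were also lost by library size alone (FDR 0.401 and 0.179) and with only the 2 groups in the fit (FDR 0.109 and 0.0553).

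Dep, fasted and cool but kept from torpor by touching in the last hours before sampling, did not differ from Mid past the threshold at any member. Whether Dep mice had been torpid earlier was not reported. The paper states that an effect of the touching on torpor propensity was not quantified. None of the 10 was called by edgeR, by the likelihood ratio test or by DESeq2, 1 (Sesn1) had an unadjusted p below 0.05, and over all promoters 1.16% were higher and 0.872% lower in Dep. The 95% intervals of the difference were log2 -0.26 to 0.10 for Mtor and -0.13 to 0.41 for Eif4ebp1, but -1.19 to 0.36 for Ddit4 and -0.25 to 1.01 for Sesn2. Ddit4 held 14.3, 13.7, 25.2 and 18.3 CPM in Dep, inside the Mid range. Sesn1 held 43.1, 38.3, 73.9 and 44.5 CPM, 3 of them below all Mid libraries but Mid 6, a difference of log2 -0.48 (SE 0.22, FDR 0.237). Without Mid 6 it was -0.59 and passed at FDR 0.0493. Sesn2 was carried by Dep 3, at 16.3 CPM beside 3.77, 7.12 and 4.19, and Dep 3 was also the library with the most adipocyte marker tags.

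Dep was also set against Pre, Fed and HiT, the libraries already used against Mid. From Pre to Dep 5 rose (Ddit4, Sesn1, Sesn2, Eif4ebp1 and Mtor) and none fell, where 13.7% of all promoters rose and 12.1% fell. Ddit4 rose 4.71-fold (log2 2.24, SE 0.46, FDR 7.60e-04), Sesn1 3.27-fold, Eif4ebp1 2.24-fold and Mtor 1.37-fold. The Mtor call was lost by library size alone (log2 0.28 against 0.46, FDR 0.305) and with the deposited TPM (log2 0.27, FDR 0.317). Sesn2, at log2 1.31 (FDR 0.00951), went to 0.67 (FDR 0.129) without Dep 3. From Fed to Dep 5 rose (Ddit4, Sesn1, Eif4ebp1, Mtor and Tsc1) and Rptor fell by log2 -0.53 (SE 0.12, FDR 0.00103), against 18.6% and 20%. The Tsc1 difference there, log2 0.26 (FDR 0.0476), had FDR 0.144 without Dep 3 and 0.131 without Fed 4. It stayed called in 13 of 28 fits that left out 1 library and in 3 of 10 alternatives. By library size alone it was log2 0.045 (FDR 0.878). The Mtor difference, log2 0.40 (FDR 0.00322), was log2 0.19 by library size alone (FDR 0.469) and with the deposited TPM (FDR 0.467), and neither passed. From HiT to Dep Mtor (log2 0.31, SE 0.10, FDR 0.0257) and Tsc1 (log2 0.28, SE 0.10, FDR 0.0433) rose and none fell, against 11.3% and 15.3%. Both of these calls were lost without Dep 3 or without Dep 4, and that of Mtor also without HiT 3 or by library size alone (FDR 0.35). That of Tsc1 was also lost without Pre 1, HiT 1, HiT 2 or HiT 4. It stayed in 4 of 10 alternatives, with FDR 0.385 by library size alone and 0.0517 by the likelihood ratio test.

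Ordered by mean CPM in the 1st run, Ddit4 ran from Mid (23.9 ± 12.7, SD, n = 8) through Dep (17.9 ± 5.31, n = 4), HiT (8.38 ± 4.55, n = 4), Fed (3.85 ± 1.38, n = 4) and Pre (3.79 ± 1.37, n = 4) to Post (3.17 ± 1.14, n = 4). The differences between the neighbours Mid and Dep, and Pre and Fed, did not pass (FDR 0.566 and 1.0), nor did that between Pre and Post (FDR 0.882). Their 95% intervals, log2 -1.19 to 0.36, -0.92 to 0.92 and -1.23 to 0.73 in that order, were wide and do not show equal levels. HiT and Fed were not compared. Dep and HiT did not overlap, from 13.7 CPM up against at most 13.5, and their difference of log2 1.09 (interval 0.19 to 1.99) missed the threshold at FDR 0.0678 but passed by DESeq2 (FDR 0.0375) and without Mid 6 (FDR 0.0303) or HiT 3 (FDR 0.025). Sesn1 had the same order down to HiT, at 69.7 ± 23.3, 49.9 ± 16.2 and 45.6 ± 7.93 CPM. Eif4ebp1 put HiT first, at 327 ± 42.7 CPM, then Dep at 299 ± 28.3 and Mid at 271 ± 59.9, with Post at 159.7 ± 7.25 and Pre and Fed at 133 ± 7.505 and 129.7 ± 3.02 CPM. Mtor put Mid and Dep first, at 57.8 ± 5.97 and 54.6 ± 6.60 CPM, and the other 4 conditions lay between 39.7 and 44.1. Rptor put Fed first at 22.4 ± 4.37 CPM and the 3 fasted conditions last, between 15.4 and 15.9 CPM.

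Sesn1 had a second promoter, 76866 bp upstream of the main one, on chromosome 10 of mm10 from 41810092 to 41810905, plus strand, its peak 636 bp downstream of the nearest GENCODE start of the gene and so outside the 500 bp rule. It was added after the data were seen. Its tags were 8.36 ± 1.17 CPM in Pre and 13.8 ± 2.97 in Mid (log2 0.72, SE 0.14, FDR 4.07e-04), so both promoters rose, the main one further. The upstream promoter supplied 43.2%, 34.0%, 35.8% and 29.5% of Sesn1 tags in Pre and 13.7% to 25% in Mid, Mid 6 being the highest. The ratio of the 2 promoters fell by 1.41 on the log2 scale from Pre to Mid (p = 0.00404, adjusted 0.00673, exact two-sided permutation test over 495 assignments, the smallest p it allows). It moved by log2 1.70 from Mid to Post and by -1.68 from Fed to Mid, each with the same adjusted p. From HiT to Mid the ratio moved by log2 -0.64 (exact adjusted p = 0.0202), with shares of 24.4% ± 1.23 (SD, n = 4) in HiT and 17.4% ± 3.95 (n = 8) in Mid. From Mid to Dep the exact adjusted p was 0.0646, at log2 0.49. The 2nd run held shares of 36.0%, 19.3% and 37.8% in Pre, Mid and Post. The RefSeq window of the upstream promoter held the GC box and the FOXO core TGTTTAC, which the main one lacked.

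**Figure D4:**
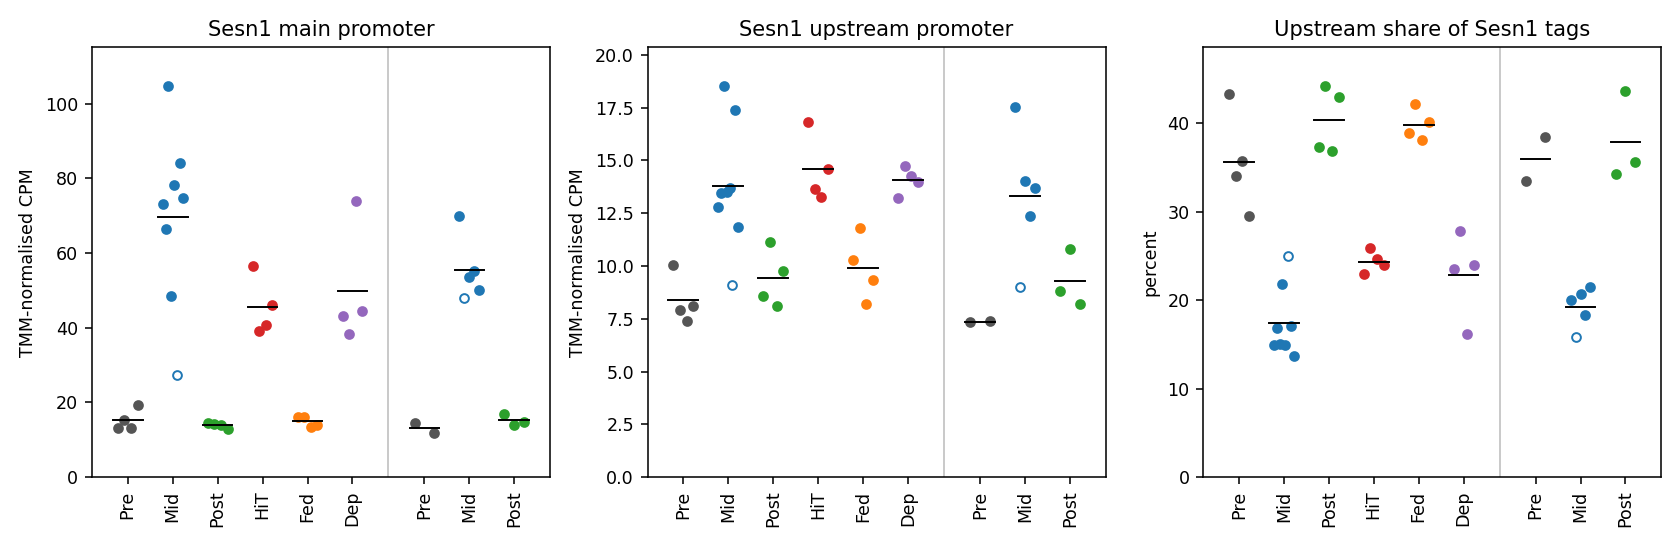
Main and upstream Sesn1 promoters in TMM-normalized CPM (left and middle, y axes from 0) and the upstream share of their summed tags in percent (right), by condition, 1st run left of the grey line. Points are libraries, bars are means, and open points are Mid 6 and Mid 10. The upstream share was 17.4% in Mid against 35.6% in Pre and 40.3% in Post.

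Beyond the 10 members, 68 further genes of the pathway were listed by role, of which 52 had a promoter in the table. From Pre to Mid 12 of the 52 rose and 9 fell, where 15.4% of all promoters rose and 14.8% fell, and their median log2 fold change was 0.03. Mid to Dep had 1 call, Lamtor3, a Ragulator subunit (FDR 0.0489). Of the other subunits and assembly factors, 3 of 8 had a promoter (Mlst8, Prr5, Prr5l, Telo2 and Tti1 did not), and Tti2, an assembly factor of the kinase, rose from 8.69 ± 0.05 to 10.6 ± 0.97 CPM (log2 0.29, FDR 0.0153). From Fed to Mid Mapkap1, a complex 2 subunit, was lower by log2 -0.49 (FDR 0.0266).

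The lysosomal proteins bring complex 1 to the lysosome surface. Of 10 measured, 2 rose and 2 fell from Pre to Mid (over all promoters 15.4% rose and 14.8% fell). Fnip1 rose from 26.6 ± 4.08 to 63.9 ± 5.63 CPM (log2 1.26, SE 0.10, FDR 7.94e-09), and its partner Flcn by log2 0.44 (FDR 7.23e-04), the pair acting on the Rag GTPases, while Lamtor4 of the Ragulator anchor fell by log2 -0.36 (FDR 4.41e-04). Fnip1 and Flcn were also higher in Mid than in HiT, by log2 0.65 and 0.34. Rragd was higher in Mid than in HiT (log2 0.35, FDR 0.00795) and lower than in Fed (log2 -0.37, FDR 0.00519), and Lamtor3 was higher in Mid than in Fed (log2 0.39, FDR 0.00187). Of 10 amino acid sensing genes measured, none rose and 3 fell from Pre to Mid, against 15.4% and 14.8% of all promoters. The list held brakes on complex 1. It also held subunits of GATOR2, the target of the sestrins, which is not a brake. Castor2, of the arginine sensor family, went from 52.0 ± 2.18 to 30.3 ± 3.76 CPM (log2 -0.78, SE 0.10, FDR 1.77e-06). The GATOR2 subunits Wdr24 and Sec13 changed by log2 -0.43 (FDR 0.00925) and -0.23 (FDR 0.0114), and all 3 were also lower in Mid than in HiT. Kptn, of the KICSTOR complex, was lower in Mid than in Fed by log2 -0.26 (FDR 0.0341). Sesn3, the third sestrin, did not rise with Sesn1 and Sesn2. It held 36.9 ± 0.53 CPM in Pre and 33.9 ± 4.14 in Mid (log2 -0.12, FDR 0.285). Against Pre it was lower in HiT (log2 -0.385, FDR 0.00343) and in Dep (log2 -0.39, FDR 0.00434).

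Among 11 growth factor and energy inputs measured, 3 rose and 2 fell from Pre to Mid, against the same 15.4% and 14.8%. Ddit4l, the paralogue of Ddit4 that is abundant in muscle, moved the opposite way, from 138 ± 18.4 to 30.1 ± 15.9 CPM (log2 -2.20, SE 0.27, FDR 1.56e-06), and was likewise lower in Mid than in Fed (log2 -2.09, FDR 2.45e-06). Ddit4 itself held 23.9 CPM in Mid, so its rise did not make up in tags what Ddit4l lost. Sik1, a salt-inducible kinase, rose by log2 1.20 (FDR 0.00829) and Pdpk1, which phosphorylates Akt, by 0.70 (FDR 1.77e-04). Akt2 and the AMPK subunit Prkaa2 were higher in Mid than in HiT (log2 0.37 and 0.45, FDR 9.08e-05 and 0.00656), Prkaa2 being lower in Mid than in Fed (log2 -0.39, FDR 0.0179). Among 18 outputs 6 rose and 2 fell, again beside 15.4% and 14.8% of all promoters. Ulk1, the autophagy kinase that complex 1 inhibits, rose from 34.1 ± 2.15 to 92.4 ± 23.5 CPM (log2 1.44, SE 0.21, FDR 9.43e-06) and Lpin1, a phosphatidate phosphatase and coactivator, by log2 0.63 (FDR 0.00696), while Grb10, an adaptor that dampens insulin signalling, fell by log2 -0.58 (FDR 6.19e-04). From HiT to Mid the kinase gene Sgk1, a target of complex 2, was higher in Mid by log2 1.28 (SE 0.15, FDR 1.33e-07). Eif4ebp2, the paralogue of Eif4ebp1, did not rise with it. It held 88.0 ± 10.2 CPM in Pre and 78.6 ± 19.4 in Mid (log2 -0.16, FDR 0.438). Against Pre it was lower in HiT (log2 -0.59, FDR 0.0106) and in Dep (log2 -0.60, FDR 0.0127).

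**Figure D5:**
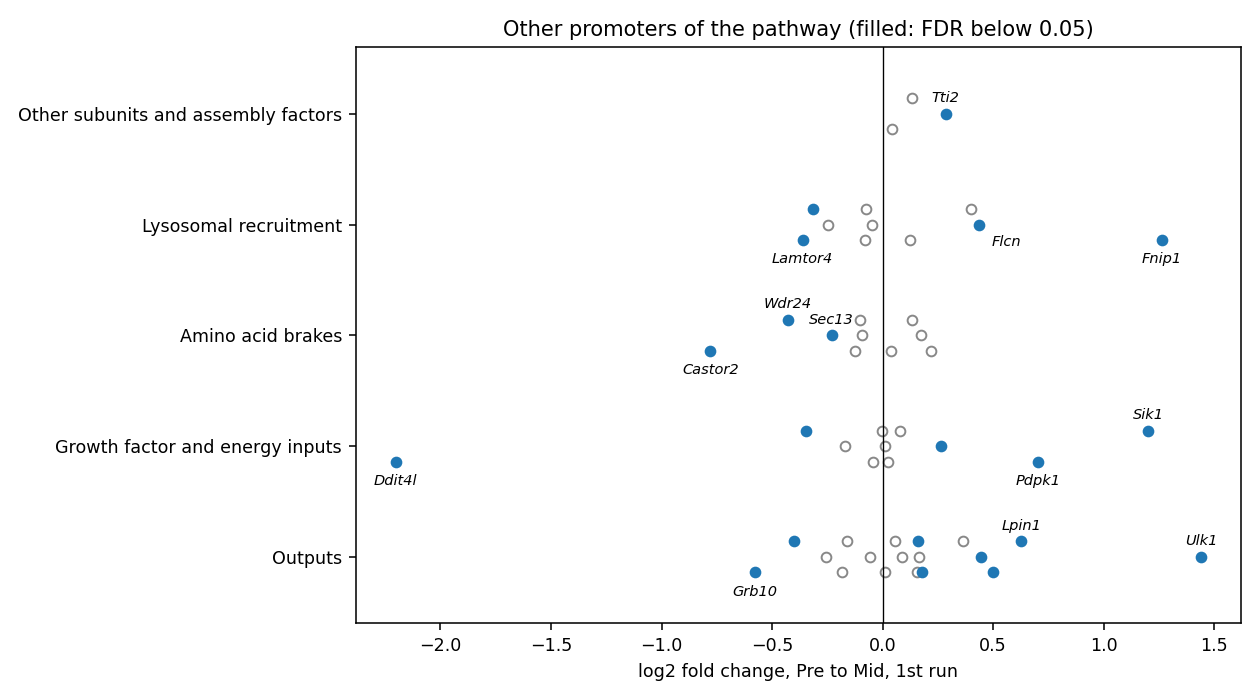
Log2 fold change from Pre to Mid in the 1st run (x axis) for the 52 further pathway promoters, by role (y axis). Points are promoters, filled where FDR was below 0.05, and the named genes are up to 3 called ones of largest change per role. The role labelled amino acid brakes also holds GATOR2 subunits, which are not brakes. Ddit4l at -2.20 and Ulk1 at 1.44 are the extremes.

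Likeness over the 28 libraries of the 1st run was ranked by Pearson correlation of log2 CPM among 9436 annotated promoters of at least 1 CPM. The points share their 6 conditions, so it is a description. The promoters most like Mtor were those of Trafd1 (r = 0.895), D230025D16Rik (r = 0.892) and Washc2 (r = 0.886). Trafd1 held 69.9 CPM in Mid and 67.4 in Dep, against 30.98 to 41.6 in the other 4 conditions. For Ddit4, the member with the widest range of group means (2.76 on the log2 scale), they were Tsc22d3 (r = 0.970), Nfkbia (r = 0.961) and Tcp11l2 (r = 0.955). Tsc22d3, a glucocorticoid-induced gene, held 206 CPM in Mid, 162 in Dep, 107 in HiT and 50.7 to 69.5 in Pre, Post and Fed.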

How the data were processed

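nAnT-iCAGE libraries of soleus were trimmed, mapped to mm10 with BWA and HISAT2 and clustered into promoters by the authors, who deposited tag counts and TPM (tags per 1000000) per promoter, each with its highest peak. The counts, 28 libraries in the 1st run and 10 in the 2nd, were fitted per run with all groups in 1 model (edgeR 4.0.16 in R 4.3.3, TMM, quasi-likelihood F test, Benjamini-Hochberg FDR 0.05 over 10776 or 10816 promoters). DESeq2 1.42.0, a likelihood ratio test, other scalings and filters, limma 3.58.1 on the deposited TPM (log2 of TPM + 0.1) and leaving out each library were the alternatives. The steps were tested on simulated data. Replicates were separate animals.

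The members and gene lists were chosen with earlier results of these data known. All members were named, with their most abundant promoter as main, and from each pathway list up to 3 called genes of largest change from Pre, HiT or Fed to Mid, and the 3 promoters most like Mtor and the widest-ranging member. Sesn3 and Eif4ebp2, relatives of members, were named in addition after the data were seen. The Sesn1 ratio used tag counts + 0.5. Depths were 9359994 to 39176649 tags per library, and 93.1% to 95.6% of each library lay in the promoters used. No 2 replicates were alike within sampling noise.

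Replicate numbers were not taken to pair the libraries. Over 60 pairs with the same number in the 1st run, deviations from the group means correlated at -0.435 to 0.547, with a median of -0.011. Over both runs, 11 of the 28 libraries with a partner correlated best with one of their own number. The count that chance would give was not computed.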

Additional observations from a re-analysis of the deposited data

Results flagged for a closer look

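In HiT 4, Sesn2 held 6.89 CPM, apart from 4.45 to 4.78 CPM in the other 3 HiT libraries. In Mid 6, Eif4ebp1 held 145 CPM, apart from 245 to 334 CPM in the other 7 Mid libraries. These were the 2 single libraries standing apart among 70 groups of a member examined, where chance gives about 1 in 20 groups.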

How the results depend on the processing

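Of 1290 results for single promoters under other settings, 1209 kept their side of the threshold, 54 were lost, 27 were gained and 0 of the called ones reversed. Of those 1209, 68 were uncalled under both settings and changed sign. By library size alone, calls of Mtor, Tsc1, Rptor, Deptor, Sesn1 and Sesn2 were lost in at least 1 comparison. By library size alone 3 members were called from Mid to Post, 2 from HiT to Mid, 0 from Pre to Fed and 0 from HiT to Dep. With the deposited TPM and limma the counts were 3 from Pre to Mid, 3 from Mid to Post, 2 from HiT to Mid, 0 from Pre to Fed, 3 from Pre to Dep and 0 from HiT to Dep. With only the 2 groups compared they were 1 from Pre to Post (Eif4ebp1), 4 from Pre to HiT, 0 from Pre to Fed and 0 from HiT to Dep. From Pre to HiT DESeq2 called 4 and all 38 libraries with run as a term 4. From HiT to Dep the latter called 1 and the likelihood ratio test 1. With lane as a term, chosen after the data were seen, 1 was called from Mid to Post in the 2nd run. The cause of these differences was not tested.

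With the replicate block the count was 1 instead of 2 from Pre to Fed, and 6 from Pre to Mid, 6 from Mid to Post, 3 from HiT to Mid and 5 from Fed to Mid. It added Deptor from Pre to Mid (log2 0.51, FDR 0.0205) and from Mid to Post (log2 -0.56, FDR 0.011), Sesn2 from Mid to Post (FDR 0.0377) and Ddit4 from HiT to Dep (FDR 0.048). It lost Tsc1 from HiT to Mid, Fed to Mid, Fed to Dep and HiT to Dep and Rptor from Mid to Post and Pre to Fed. No paired analysis was possible for the 2nd run because its Mid libraries share no number with Pre or Post.

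Leaving out 1 library at a time gave 4 to 5 calls from Pre to Mid, 4 to 7 from Mid to Post, 3 to 4 from HiT to Mid, 5 to 7 from Fed to Mid, 0 to 1 from Mid to Dep, 0 to 0 from Pre to Post, 2 to 4 from Pre to HiT, 0 to 2 from Pre to Fed, 4 to 5 from Pre to Dep, 5 to 7 from Fed to Dep and 0 to 3 from HiT to Dep. In the 2nd run it gave 1 to 4 calls from Pre to Mid and 2 to 5 from Mid to Post. The Sesn1 promoter ratio ranged from log2 0.36 to 0.69 for Mid to Dep, the 1 comparison whose call changed. Here the unadjusted exact p was used, and it passed without Mid 6 or Dep 3.

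Without TMM the median of all promoters moved to log2 0.11 from HiT to Mid, -0.12 from Fed to Mid, -0.13 from Pre to HiT, -0.18 from Pre to Dep and -0.23 from Fed to Dep. The share rising among all called promoters moved by over 10 percentage points in 9 of 13 comparisons, for example from 48.2% to 17.1% from Fed to Dep and from 47.1% to 23.3% from Fed to Mid.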
